A study of Arabidopsis thaliana with 3 samples.

Results

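The MLP genes of Arabidopsis thaliana encode proteins related to the major latex proteins of poppy, and 9 of them were followed here among the 33557 gene identifiers that both deposited tables list. They are MLP28 (AT1G70830), MLP31 (AT1G70840), MLP34 (AT1G70850), MLP43 (AT1G70890), MLP328 (AT2G01520), MLP329 (AT2G01530), MLP423 (AT1G24020), MLP165 (AT1G35260) and MLP168 (AT1G35310), taken by gene identifier. These 9 are all of the genes whose product the RefSeq annotation calls an MLP-like protein. The set was selected on these names with the FPKM values and log2 ratios of both tables in view, so the levels and ratios below describe the genes and no test was run on them.

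The study measured RNA of whole 11-day-old seedlings in 3 groups. The skip mutant and wild type were each kept in MS liquid medium, a standard plant culture medium, with 200 mM NaCl for 4 h. Wild type was also kept in the medium without added salt, for a time that the sources used here do not give. The labels call the mutant skip and give no allele, line or ecotype, and no untreated skip group was analysed here. SKIP (AT1G77180), which encodes a spliceosome protein that also acts in transcription, was listed at 41.6 FPKM in skip, against 49.0 FPKM in wild type with salt, a log2 ratio of -0.23. That total per gene does not check the genotype. FPKM is the number of fragments per kilobase of transcript, scaled to the size of the library. Each group has a single value per gene, into which the authors had combined 2 replicates, so the spread between replicates is unknown and no p-value is given. A gene is called higher or lower when its log2 ratio of FPKM + 1 is at least 1 in size, a 2-fold rule of size. Between 24170 and 24882 genes had a value above 0 in a group, and the columns sum to 736286 to 851739 FPKM. All 16 root markers and 10 green tissue markers examined were above 0 in every group.

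Major latex proteins were first described in the milky latex of opium poppy and belong to the Bet v 1 superfamily, named after a birch pollen allergen. Proteins of this fold enclose a hydrophobic cavity that can hold small ligands, and the PYR and PYL receptors of the stress hormone abscisic acid share it. In Arabidopsis, MLP43 has been described as a positive factor in abscisic acid responses and drought tolerance. MLP328 and MLP329 are also known as ZCE1 and ZCE2, genes raised by cis-cinnamic acid, and have been linked to vegetative growth and flowering time.

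The genes fall into close groups by sequence, and their places in the genome follow these groups. Positions are those of the RefSeq annotation of TAIR10.1, the tables themselves hold none, and values were joined by gene identifier. MLP28 (chr1:26709889-26711587), MLP31 (chr1:26712982-26714069), MLP34 (chr1:26714866-26716901) and MLP43 (chr1:26725521-26726652) lie on the minus strand of chromosome 1 in a row that also holds AT1G70860, AT1G70870 and AT1G70880. Their encoded proteins were 74.7% to 90.5% identical over the aligned residues. MLP328 (chr2:235925-237253) and MLP329 (chr2:239669-240687) are neighbouring protein-coding genes on the plus strand of chromosome 2 with 88.1% identity. The non-coding RNA gene AT2G04005, annotated between them on the minus strand, has no values here. MLP165 (chr1:12936849-12937787) and MLP168 (chr1:12956119-12957090), with 72.8% identity, were 51.7% to 56.3% identical to the MLP28 to MLP43 row. MLP423 (chr1:8500119-8502065) stands apart. The remaining pairs, all of which include MLP328, MLP329 or MLP423, had 24.8% to 38.9% identity.

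MLP28 and MLP34 are the long members. Their longest models code for 335 and 316 residues, against 151 to 171 in the other 7. The first and second part of the MLP28 protein, cut at its middle, were 91.9% identical over 160 aligned residues, and those of MLP34 85.9% over 156, so both encode a repeated unit. Their longest transcripts hold 2 introns, and those of the other 7 hold 1 intron each, of 79 to 434 bases.

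**Figure D1:**
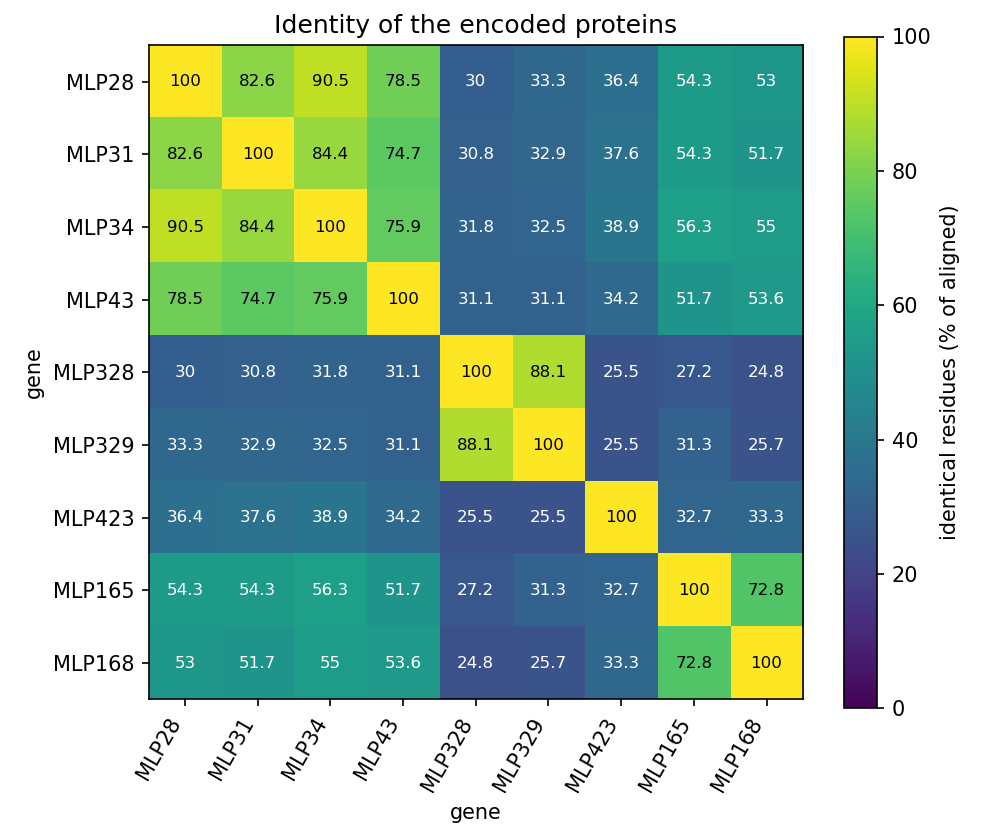
Percentage of identical residues among aligned residues for every pair of the 9 encoded proteins, from the longest coding model of each gene, with genes on both axes and the value printed in each cell. MLP28, MLP31, MLP34 and MLP43 form 1 block at 74.7% to 90.5%, and MLP328 with MLP329 forms another at 88.1%.

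Close copies can exchange reads in a count per gene, so stretches of the coding sequence are shown for some pairs of close copies. Capitals mark the bases that differ between the 2 lines of a pair, and positions count from the first base of the longest coding model. The first pair differs at 8 of 120 bases, the MLP28 and MLP34 stretches at 18 and the MLP165 and MLP168 stretches at 29. Over all aligned coding bases, identity was 89.7% for MLP328 with MLP329 and 89.8% for MLP28 with MLP34. For MLP165 with MLP168 it was 82.7%, so the stretches do not rank the pairs.
MLP328, bases 1 to 120: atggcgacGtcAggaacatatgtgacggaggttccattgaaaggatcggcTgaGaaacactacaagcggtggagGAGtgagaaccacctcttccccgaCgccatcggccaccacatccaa
MLP329, bases 1 to 120: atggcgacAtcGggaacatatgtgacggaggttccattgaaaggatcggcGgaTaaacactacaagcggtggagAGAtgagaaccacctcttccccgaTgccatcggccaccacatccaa
MLP28, bases 40 to 159: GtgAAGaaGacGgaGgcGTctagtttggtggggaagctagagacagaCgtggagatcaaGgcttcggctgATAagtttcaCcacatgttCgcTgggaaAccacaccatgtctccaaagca
MLP34, bases 1 to 120: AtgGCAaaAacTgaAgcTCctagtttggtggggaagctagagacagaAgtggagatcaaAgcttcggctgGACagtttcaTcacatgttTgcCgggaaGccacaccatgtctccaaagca
MLP165, bases 1 to 120: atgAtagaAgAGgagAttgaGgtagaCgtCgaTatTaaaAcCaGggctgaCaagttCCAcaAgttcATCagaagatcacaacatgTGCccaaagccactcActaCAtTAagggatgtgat
MLP168, bases 1 to 120: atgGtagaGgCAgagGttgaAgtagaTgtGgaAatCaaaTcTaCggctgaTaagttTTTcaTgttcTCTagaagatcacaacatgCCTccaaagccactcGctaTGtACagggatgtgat
Over whole transcripts, MLP28 and MLP34 shared 2.46% and 2.52% of their 50-base words with each other. The other 7 transcripts held no 50-base word that is annotated in another gene, so a read of that length without mismatches would match a single annotated gene. Copies outside annotated transcripts were not searched. The sources used here do not state the read length.

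Wild type with and without salt was compared first. No time is given for the untreated group, so the 4 h of salt and time in the medium cannot be told apart. All 9 genes had a lower value with salt than without, as did 12083 of the 23502 genes above 0 in both groups. MLP31, at 0 with salt, is not among those 23502. MLP34, MLP328, MLP329, MLP165 and MLP43 were at least 2-fold lower, and MLP28, MLP31, MLP423 and MLP168 were within the rule. Over all rows of the table, 3.81% were at least 2-fold lower and 6.04% at least 2-fold higher. Among the 15830 genes at 5 FPKM or more in a group, 1000 were lower and 1733 higher by that rule. The median log2 ratio of the 9 genes was -1.19, beside 0.00 for all genes. Of the 9 genes, 7 reached 5 FPKM in a group, and MLP31 and MLP168 did not.

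The chromosome 2 pair moved alike with salt. MLP328 was listed at 61.4 FPKM in salt-treated wild type, against 235 FPKM in untreated wild type, a log2 ratio of -1.92. MLP329 was listed at 52.3 FPKM with salt, against 182 FPKM without, a log2 ratio of -1.78. Both genes thus kept between 26.2% and 28.7% of their untreated FPKM.

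Within the chromosome 1 row, close relatives had unlike ratios. MLP34 was listed at 58.5 FPKM with salt, against 243 FPKM without, a log2 ratio of -2.04 and the lowest of the 9. Its closest relative MLP28 was listed at 83.0 FPKM with salt, against 93.0 FPKM without, a log2 ratio of -0.16. MLP43, the gene linked to abscisic acid responses, was listed at 31.6 FPKM with salt, against 73.1 FPKM without, a log2 ratio of -1.19. Untreated wild type therefore had more MLP34 than MLP28 per length, and salt-treated wild type had less. MLP31 stood at the floor of detection, listed at 0 with salt and at 0.0774 FPKM without, and no fold is given for it.

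MLP423 had the highest level of the 9 in wild type, at 159 FPKM with salt, against 261 FPKM without, a log2 ratio of -0.72. MLP165 was listed at 10.8 FPKM with salt, against 34.1 FPKM without, a log2 ratio of -1.58. MLP168 was low throughout, at 0.941 FPKM with salt, against 2.39 FPKM without, and its log2 ratio of -0.80 becomes -1.26 with a pseudocount of 0.1 FPKM. A level of this size in salt-treated wild type corresponds to roughly 29 fragments, by an estimate from steps in the low FPKM values, while MLP165 in that group rests on roughly 301.

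Most root markers were lower in the same comparison. Of 16 root genes, among them the root hair wall proteins PRP1 and PRP3 and the Casparian strip proteins CASP1 to CASP4, 12 were at least 2-fold lower with salt and 0 were higher. CASP5 and IRT1 had ratios above 0 within the rule, at 0.57 and 0.38. SCR and SHR fell by less than 2-fold. SCR was listed at 13.7 FPKM with salt, against 16.3 FPKM without (-0.24). SHR was listed at 6.21 FPKM with salt, against 11.3 FPKM without (-0.77). The summed level of all 16 root genes was 57.1 FPKM with salt, against 265 FPKM without, and their median log2 ratio was -1.82. Of 10 genes of green tissue, 1 was lower, with a median of -0.58 and a summed level of 35720 FPKM with salt, against 49410 FPKM without. The part of these shifts in the MLP values was not tested. In RNA of whole seedlings, fewer cells of a type and less RNA per cell cannot be told apart.

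The second comparison sets skip against wild type, both with salt. Here 7 of the 9 genes had a lower value in skip, as did 13540 of the 23790 genes above 0 in both groups. MLP31, at 0 in wild type, is not among those 23790. MLP328, MLP329, MLP165, MLP34 and MLP423 were at least 2-fold lower, and the rest were within the rule. Among all rows there, 2.61% were at least 2-fold lower and 1.63% at least 2-fold higher. Of the 14951 genes at 5 FPKM or more in a group, 693 were lower and 412 higher by that rule. The median log2 ratio was -1.0 for the 9 genes, beside 0.00 for all genes and -0.05 for genes above 0 in both groups. Salt-treated wild type enters both comparisons, over untreated wild type in the first and under skip in the second, so the comparisons are not independent.

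MLP328 and MLP329 had the widest differences of the 9. MLP328 was listed at 6.76 FPKM in skip, against 55.6 FPKM in wild type, a log2 ratio of -2.87. It ranked 21 from the lowest among the 14951 genes with 5 FPKM or more in a group there. MLP329 was listed at 8.20 FPKM in skip, against 47.3 FPKM in wild type, a log2 ratio of -2.39 and rank 39. In FPKM itself, without the pseudocount, wild type had 8.22 times as much MLP328 as skip and 5.77 times as much MLP329. Skip values of this size rest on roughly 184 and 237 fragments.

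MLP165 followed, at 1.79 FPKM in skip, against 9.73 FPKM in wild type, a log2 ratio of -1.94 and rank 75. Only about 40 fragments stand behind its skip value. Its paralogue MLP168 was listed at 0.985 FPKM in skip, against 0.851 FPKM in wild type, a log2 ratio of 0.10 on roughly 24 and 29 fragments. A difference of this size is not detectable at that depth.

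The genes of the chromosome 1 row differed less than MLP328, MLP329 and MLP165. MLP34 was listed at 21.8 FPKM in skip, against 52.9 FPKM in wild type, a log2 ratio of -1.24. MLP28 was listed at 42.9 FPKM in skip, against 75.1 FPKM in wild type, a log2 ratio of -0.79. MLP43 was listed at 22.4 FPKM in skip, against 28.6 FPKM in wild type, a log2 ratio of -0.34, and MLP31 at 0.0403 FPKM in skip and at 0 in wild type. MLP423 lies on the edge of the rule, at 71.3 FPKM in skip, against 144 FPKM in wild type. Its log2 ratio of -1.0 becomes -0.94 once ratios are centred on the median gene, which takes it out of the count.

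Few root and green tissue markers passed the rule in this comparison. Of the 16 root genes, 0 were lower and 1 was higher in skip, the iron transporter gene IRT1 at 3.12 FPKM in skip, against 0.867 FPKM in wild type. The summed level of all 16 was 54.8 FPKM in skip, against 51.7 FPKM in wild type, with a median log2 ratio of -0.02. Only 4 of the 16 reached 5 FPKM in a group here. Adding 1 FPKM shrinks the ratios of the rest, so differences in them can go uncalled. None of the 10 green tissue genes passed the rule in either direction, and their median log2 ratio was -0.26. They did not move alike, with 7 ratios below 0 and 3 above 0, from -0.85 for LHB1B1 to 0.94 for RCA.

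**Figure D2:**
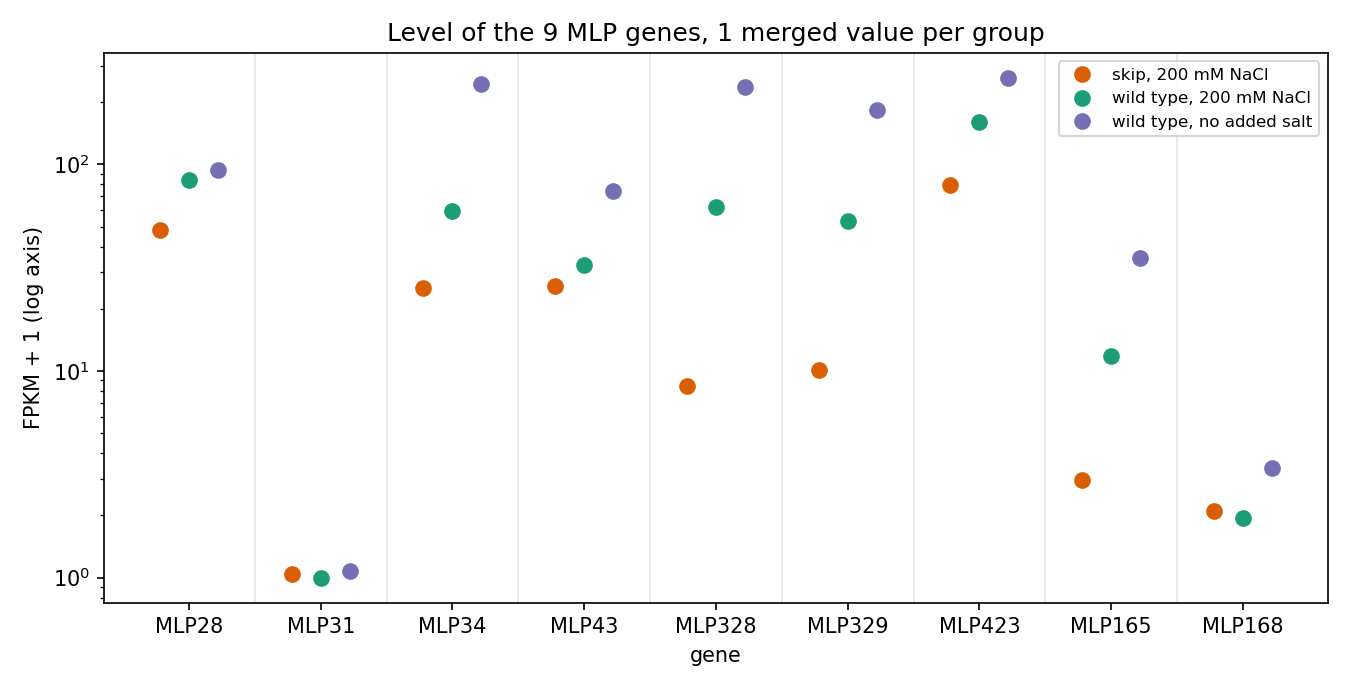
Level of each of the 9 genes as FPKM + 1 on a log axis, with 1 point per group for skip with salt, wild type with salt and wild type without added salt. The skip values were brought to the scale of the first table, and MLP328 and MLP329 show the widest spread, with skip lowest.

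To set all groups on a single scale, the skip values were multiplied by 1.105, the ratio of the salt-treated wild-type values in the tables, which were scaled separately. On that scale, MLP328 stood at 7.46 FPKM in skip with salt, 61.4 FPKM in wild type with salt and 235 FPKM in untreated wild type. MLP329 stood at 9.06, 52.3 and 182 FPKM in the same order of groups. MLP328, MLP329, MLP165 and MLP34 had 3.18%, 4.98%, 5.80% and 9.92% of their untreated wild-type level in skip with salt. For MLP423, MLP43 and MLP28 these shares were 30.1%, 33.9% and 51.0%. In untreated wild type the order of levels was MLP423, MLP34, MLP328, MLP329, MLP28, MLP43, MLP165, MLP168 and MLP31. In skip with salt it was MLP423, MLP28, MLP43, MLP34, MLP329, MLP328, MLP165, MLP168 and MLP31. With 1 merged value a group, whether neighbours in these orders differ beyond their spread is unknown.

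**Figure D3:**
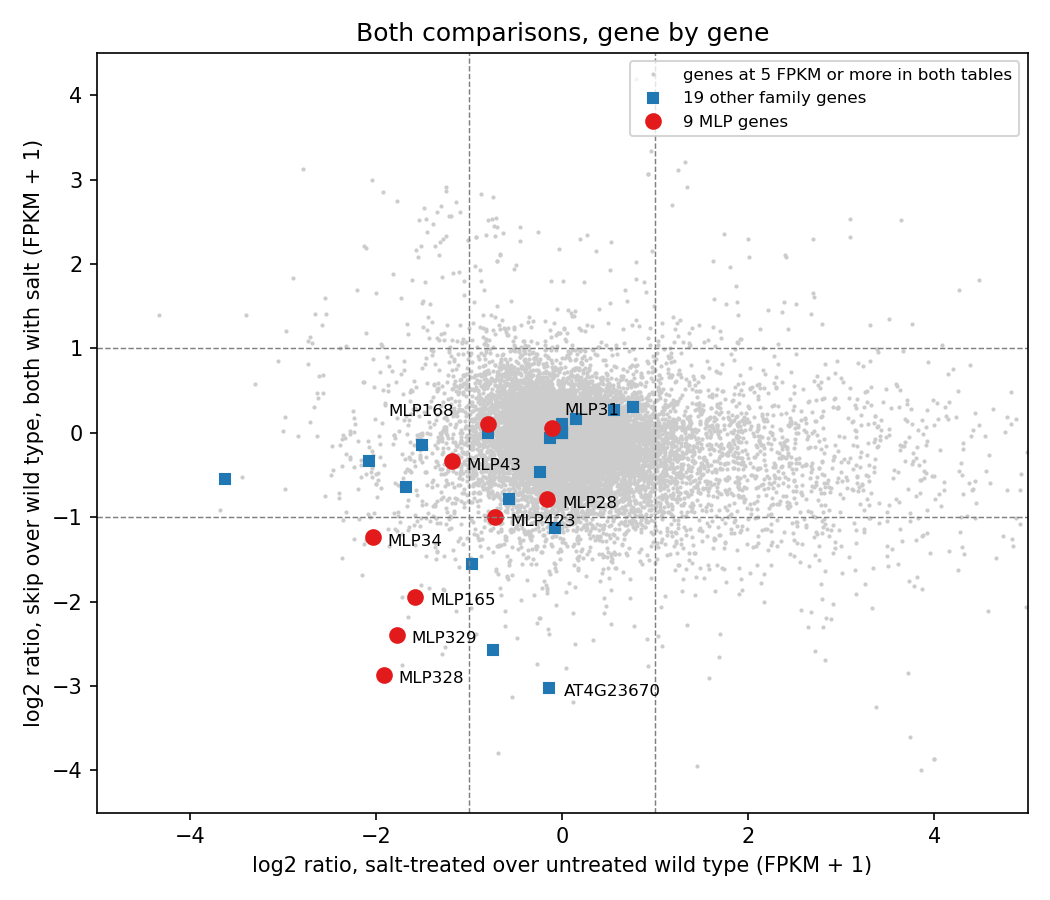
Log2 ratio of salt-treated over untreated wild type on the x axis and of skip over wild type, both with salt, on the y axis, on the scale of FPKM + 1, with dashed lines at the 2-fold rule. Grey points are 14708 genes with 5 FPKM or more in a group of each table, of which 27 lie outside the axes, and MLP328, MLP329, MLP165 and MLP34 sit below both lower lines.

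For genes of similar pattern, the nearest gene outside the family was taken by the distance between the pairs of log2 ratios, over 3 groups and 14708 genes. MLP34 lay nearest to AT5G62360, annotated as a protein of the invertase and pectin methylesterase inhibitor superfamily, at a distance of 0.0784. MLP165 lay nearest to AT1G77520, annotated as an O-methyltransferase, at 0.142. For MLP329 it was the terpene synthase gene AT3G25830, at 0.236, whose transcript is wholly shared with a second annotated copy. For MLP328 it was the small nucleolar RNA locus SNOR77 (AT5G10572), at 0.228, which is listed at 0 in skip and is therefore uncertain. MLP28, MLP43 and MLP423 lie where many genes have similar ratios. Their nearest genes were AT1G17430, at 0.0188, AT4G13495, at 0.00631, and the arabinogalactan protein gene AGP25, at 0.0456. Among the 9 genes, MLP329 was the nearest to MLP328, at 0.493, and 1 of the 14708 genes lay nearer. MLP329 itself lay nearest to MLP165, at 0.492, with 3 genes nearer, and MLP165 to MLP329 with 7 nearer. The nearest of the 9 was preceded by 78 genes for MLP34, 583 for MLP423, 587 for MLP43 and 2549 for MLP28. For MLP43 that nearest gene was MLP168, whose low level puts it outside the 14708 genes, so this place is uncertain.

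In the chromosome 1 row, MLP34, MLP43 and the genes detected between them were lower with salt, while MLP28 was within the rule. Between MLP34 and MLP43, AT1G70860 was listed at 0.429 FPKM with salt, against 3.08 FPKM without, and AT1G70880 at 1.15 FPKM with salt, against 5.90 FPKM without, which are log2 ratios of -1.51 and -1.68. AT1G70870 was listed at 0 in all groups, and the pseudogene AT1G70885 had a salt log2 ratio of -1.02 at low level. In skip, AT1G70860, AT1G70880 and AT1G70885 had log2 ratios of -0.15, -0.64 and -0.95, all within the rule and at low level. The flanking genes lie outside the family. AT1G70820, annotated as a phosphoglucomutase, had log2 ratios of -0.33 for salt and -1.23 for skip, and CLE17, a signalling peptide gene, had -0.28 and -0.31.

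Beside the chromosome 2 pair, AT2G01510 had log2 ratios of -0.16 for salt and 0.28 for skip. AT2G01540, annotated as a calcium-dependent lipid-binding protein, was listed at 8.06 FPKM in skip, against 17.1 FPKM in wild type, which lies just within the rule, and its salt log2 ratio was 0.02. Next to MLP423, AT1G24030 had -0.06 for salt and 0.07 for skip. On its other side AT1G24010, which RefSeq annotates like the wider family, had 0.07 and -0.12 at levels below 0.1 FPKM. Around MLP165 and MLP168, AT1G35255 had -0.51 and -0.34 in the same order, and AT1G35320 had -0.74 and -0.60.

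**Figure D4:**
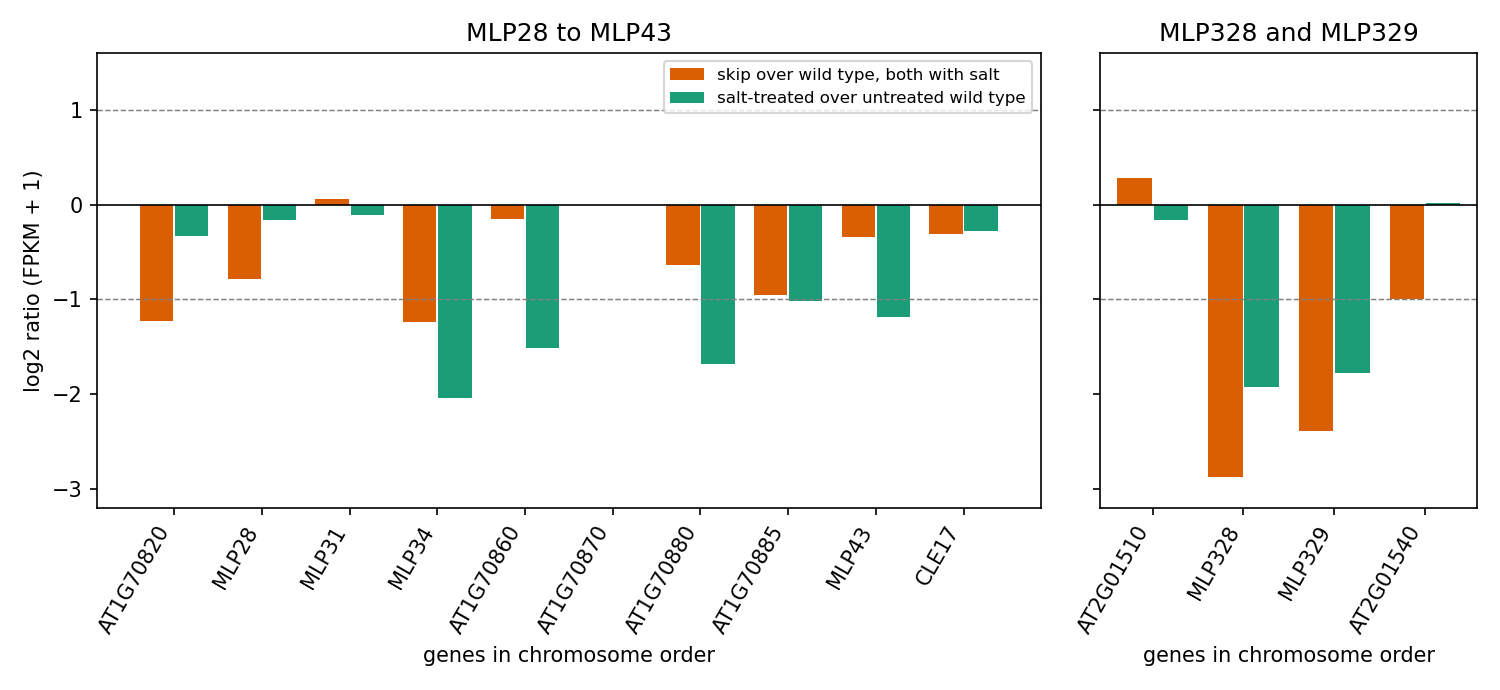
Log2 ratios on the scale of FPKM + 1 for the genes of the MLP28 to MLP43 row and of the MLP328 and MLP329 pair with 1 flanking gene on each side, in chromosome order, as orange bars for skip over wild type with salt and green bars for salt-treated over untreated wild type. Dashed lines mark the 2-fold rule, and in the right panel MLP328 and MLP329 reach -2.87 and -2.39 in skip. Both flanking genes there are within the rule, AT2G01540 only just in skip.

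The wider family was described from a list of 19 further loci, AT1G24010 and some others not included, that RefSeq annotates as polyketide cyclase and lipid transport proteins of the same superfamily. With salt, 4 of the 19 were at least 2-fold lower and 0 were higher, beside 3.81% and 6.04% of all rows. The other 15 did not pass the rule, and the median log2 ratio of the list was -0.14, beside 0.00 for all genes. The lower ones were AT1G14960, AT1G30990, AT1G70880 and AT1G70860. AT1G14960 had the largest change, at 1.09 FPKM with salt, against 24.9 FPKM without, a log2 ratio of -3.63. In skip, again 4 passed as lower and 0 as higher, beside 2.61% and 1.63% of all rows, and the list's median was -0.15. These were AT4G23670, AT3G26460, AT4G14060 and AT1G23120. In each table, 4 of the 19 loci were listed at 0 in both groups. In the salt comparison 9 of the 19 reached 5 FPKM in a group, and in the skip comparison 7 did.

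AT4G23670 was the most abundant gene of the family in wild type. It was listed at 103 FPKM in skip, against 845 FPKM in wild type with salt, a log2 ratio of -3.02 and rank 19 of 14951. Its salt ratio was -0.14, with 933 FPKM in salt-treated and 1030 FPKM in untreated wild type. AT3G26460 was listed at 8.21 FPKM in skip, against 53.5 FPKM in wild type, a log2 ratio of -2.57, and AT4G14060 at 2.93 FPKM, against 10.6 FPKM, a log2 ratio of -1.56. AT1G23130, also abundant, had 359 FPKM in skip, against 498 FPKM in wild type, a log2 ratio of -0.47.

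**Figure D5:**
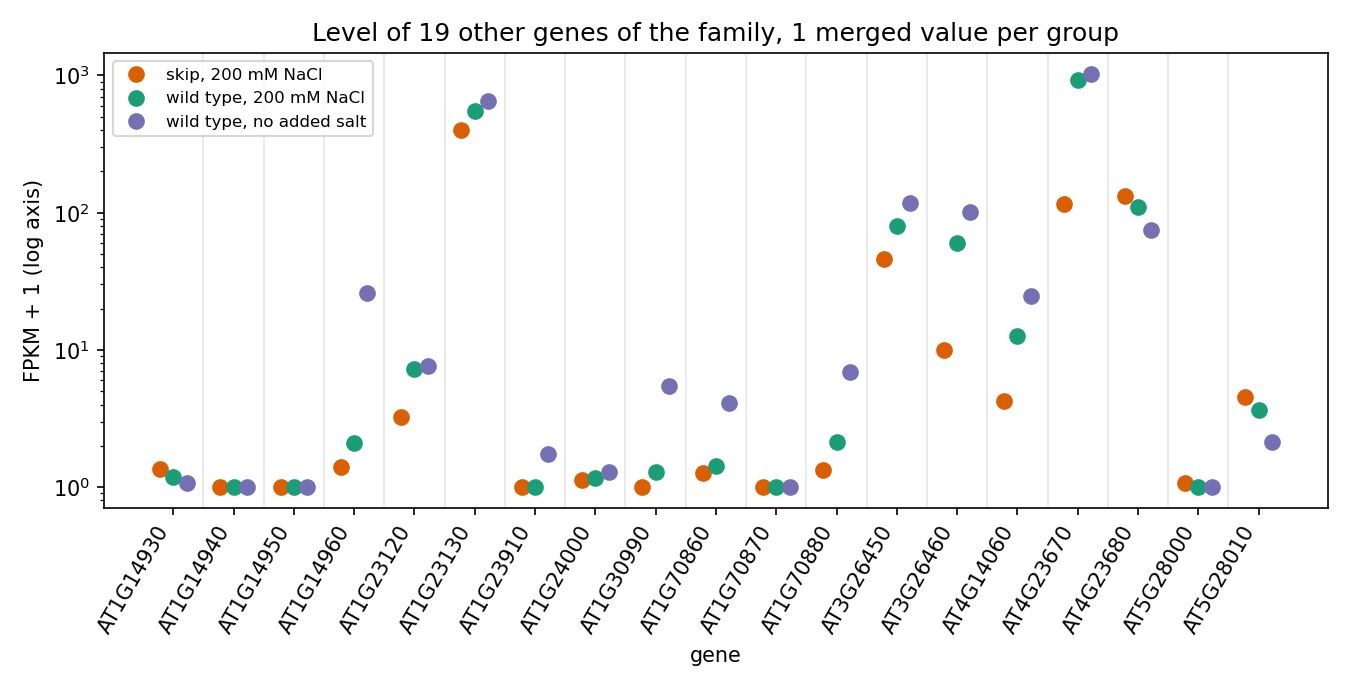
Level of 19 further family genes as FPKM + 1 on a log axis, with 1 point per group for skip with salt, wild type with salt and wild type without added salt, skip values being on the scale of the first table. AT4G23670 shows skip far below both wild-type points, while AT1G14960 shows untreated wild type above both salt-treated groups.

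The promoters of MLP328 and MLP329 are shown since, of the 9 MLP genes, these had the widest differences in skip. Each line gives the 250 bases before the annotated start of the gene, read 5′ to 3′ on the plus strand of TAIR10.1 from RefSeq.
MLP328, chr2:235675-235924: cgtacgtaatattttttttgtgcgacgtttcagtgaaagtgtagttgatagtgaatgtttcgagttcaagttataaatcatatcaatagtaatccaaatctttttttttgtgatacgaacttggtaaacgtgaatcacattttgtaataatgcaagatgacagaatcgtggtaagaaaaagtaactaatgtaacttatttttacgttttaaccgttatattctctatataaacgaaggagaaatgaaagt
MLP329, chr2:239419-239668: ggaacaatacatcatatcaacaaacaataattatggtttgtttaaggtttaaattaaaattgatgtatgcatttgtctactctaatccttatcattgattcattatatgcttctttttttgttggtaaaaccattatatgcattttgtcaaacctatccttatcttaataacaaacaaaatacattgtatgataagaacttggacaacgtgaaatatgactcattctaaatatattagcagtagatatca
In the same window of all 9 genes, 7 motifs were searched on both strands: ACGTGG and ACGTGT, which are of the abscisic acid response type, the G-box CACGTG, the DRE core CCGAC, the W-box forms TTGACC and TTGACT, and the heat shock form GAANNTTC. None of the 9 windows held a match, so nothing is in capitals. This says only that these letters are not in the windows. CACGTG can overlap ACGTGG and ACGTGT. Over 27443 nuclear protein-coding genes, the shares of windows with a match were 8.23%, 10.5%, 6.49%, 12.0%, 12.2%, 19.1% and 9.55% in the order named. Among the 19 further family loci, ACGTGG and ACGTGT each occurred in 4 windows and TTGACT in 3.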

How the data were processed

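RNA of whole seedlings was sequenced in 3 groups, and the reads were handled with TopHat, Cufflinks and the genome build TAIR10, per the submitters' processing notes, where versions are missing. The deposited FPKM values, 1 per gene and group, already merge 2 replicates per the labels. The tables name no unit, so FPKM is a reading of the values and of the tools named. The sources used here give no library kit, strand setting or merging method.

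Salt-treated wild type stands in both tables with values in a ratio of 1.105 (24822 of 24882 genes within 0.1% of it), so ratios were formed within a table, as log2 of FPKM + 1. No filter on low values was applied. Depth was estimated from steps in low FPKM values of transcripts over 800 bases: 66.2% to 68.5% of values lay within 0.15 of a whole step in 3 columns, so a kilobase at 5 FPKM rests on roughly 185 to 254 fragments, covering counting error only. Untreated wild type gave no clear step (35.3%), whole reads were not recovered and no count test was run.

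The genes, the gene lists and the motifs were chosen with earlier results of these data known. Named genes are the 9 MLP genes, 19 further family loci, SKIP, the genes next to and between them, and the nearest gene by pattern. Individual markers were named after their values were seen. RefSeq TAIR10.1 matched all 28 family identifiers. Proteins were translated from its longest coding models and aligned with Biopython 1.88 (BLOSUM62). Other pseudocounts, centring, a filter and other size rules were tried.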

Additional observations from a re-analysis of the deposited data

How the results depend on the processing

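Across the pseudocounts of 0.1 and 5 FPKM and centring on the median gene (shifts of 0.00 for salt and -0.06 for skip), 51 of 54 single-gene ratios stayed on their side of the 2-fold rule, and no called ratio changed sign. The exceptions were MLP168 for salt (-1.26 at 0.1 FPKM) and MLP423 for skip (-0.96 at 5 FPKM, -0.94 centred). The median of the 9 genes for skip was likewise -0.96 and -0.94, since MLP423 is the middle gene. A 4-fold rule left 1 MLP gene lower with salt and 2 lower in skip.

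Over all genes, the counts with salt were 3199 higher and 2432 lower at a pseudocount of 0.1 FPKM, 1251 and 592 at 5 FPKM, 3743 and 3267 under a 1.5-fold rule, and 704 and 259 under a 4-fold rule. For skip they were 1241 and 2047, 252 and 294, 1512 and 2812, and 132 and 74 in the same order. The settings themselves move these counts. Leaving out organelle, rRNA and short genes (chosen after seeing the data) kept each count over all genes within 1.5 times. Keeping only genes at 1 FPKM or more cannot change a count, since a 2-fold call on FPKM + 1 needs that level. No paired analysis was possible because each group has a single merged value, and no replicate could be left out.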

Other observations

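Neighbouring copies of the wider family had unlike values. AT4G23680, next to AT4G23670 on chromosome 4, was listed at 119 FPKM in skip, against 98.6 FPKM in wild type with salt, a log2 ratio of 0.27, while AT4G23670 had -3.02. With salt, AT4G23680 was listed at 109 FPKM, against 74.0 FPKM in untreated wild type, a log2 ratio of 0.55. On chromosome 3, AT3G26450 was listed at 41.0 FPKM in skip, against 71.4 FPKM in wild type, a log2 ratio of -0.79, beside -2.57 for its neighbour AT3G26460. Of the AT3G26450 transcript, 94.5% of the 50-base words are also annotated in AT3G26440, so its value is uncertain. AT5G28010 was listed at 2.64 FPKM with salt, against 1.15 FPKM without, a log2 ratio of 0.76, and at 3.20 FPKM in skip, against 2.39 FPKM in wild type.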
